A study of Mus musculus with 12 samples.

Results

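The genes described here are 7 genes of MHC class I and of the loading of peptides onto it, of 20661 genes in the count files. They were chosen by their role in this pathway, with earlier results of these data known: the light chain B2m, the heavy chains H2-K1 and H2-D1, the peptide transporter subunits Tap1 and Tap2, the loading factor Tapbp and the peptide-trimming enzyme Erap1. MEFs (mouse embryonic fibroblasts) were measured by RNAseq and by ribosome profiling, which sequences the mRNA pieces that ribosomes shield from nuclease (footprints). There were 3 groups with 2 replicates each in both assays, 12 libraries in all, from MEFs at passage 4. WT MEFs carried a lentiviral shRNA named shSCR (WT-shSCR) or one against ARF (WT-shARF), and MEFs without Arf carried shSCR (Arf-/--shSCR, ArfKO in the labels). In the Arf-/- allele a neo cassette takes the place of an exon of Cdkn2a that only the ARF transcript uses. All 3 groups had thus been transduced, and the study's methods describe selection of transduced cells with puromycin. The labels give the strain C57BL/6J for the WT MEFs and B6.129X1-Cdkn2atm1Cjs/KaiJ for the knockout, while the study's methods give B6129SF2/J for WT MEFs. Genotype and strain therefore cannot be told apart in any comparison with the knockout. Neither source says whether the replicates came from separate embryos or cultures, so the p-values measure only the spread between these samples, which may be technical.

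MHC class I molecules show short peptides from inside the cell to cytotoxic T cells. The heavy chain folds with B2m (β2-microglobulin) in the endoplasmic reticulum, the TAP1-TAP2 transporter pumps peptides in from the cytosol, tapasin (Tapbp) bridges the transporter and the empty heavy chain, and ERAP1 trims peptides to the length that fits the groove. Fibroblasts express these genes at a modest level and raise them in response to interferon, while macrophages express them strongly.

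Reads on genes came to 1578627 to 3989908 per RNAseq library and 2544319 to 5157572 per ribosome profiling library. Alignments to more than 1 place, which the counting left out, made up 79.22% to 81.38% of the alignments in RNAseq and 46.34% to 52.92% in ribosome profiling. Levels are given as CPM, a gene's reads as a share of its library's, with library sizes scaled by edgeR's TMM factors. Cdkn2a, the gene that encodes ARF and INK4A, went against its label in the knockdown. Its RNA level was 44.8 and 41.4 CPM in WT-shSCR, 637.55 and 677.86 CPM where the label was WT-shARF, and 27.7 and 32.4 CPM in the knockout. The study presents its immunoblot of ARF protein in these MEFs as showing both the knockdown and the knockout. That blot is not analysed here. Counts of this gene do not separate ARF from INK4A, and whether reads of the hairpin vector are among them was not tested. Each direction of the knockdown below is that of the label. The 12 fibroblast markers were read in every library, with summed footprints of 39395 and 36521 CPM in WT-shSCR, 45082 and 45662 CPM under the label WT-shARF and 33074 and 32990 CPM in the knockout. These sums differed between the groups without overlap, and after knockout 4 of the 12 markers were called higher and 3 lower in footprints. Of all genes tested there, 18.5% were called. The 18 markers of macrophages and other myeloid cells differed by far larger factors, and their values stand beside the results below.

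Class I heavy chain genes resemble each other, so the stretches whose sequence occurs in transcripts of 1 gene only were mapped first. The coding sequence of each member (GENCODE M21 on GRCm38, the assembly that mm10 names, from C57BL/6J) was cut into every window of 28 nt, and each window was looked up in the transcripts of all other genes. B2m lies on chromosome 2 from 122147686 to 122153083 on the plus strand, with 357 coding nt, and shared 0 of 330 windows. H2-K1 lies on chromosome 17 from 33996017 to 34000347 on the minus strand and shared 383 of 1080 windows (35.46%). H2-D1, on the same chromosome from 35262730 to 35267499 on the plus strand, shared 484 of 1059 windows (45.7%). Of these, 260 windows were common to H2-K1 and H2-D1. Tap1 (chromosome 17, 34187553 to 34197225, plus strand) and Tap2 (34203527 to 34216321, plus strand) shared 2.28% and 2.36% of their windows, each mainly in a single stretch. Tapbp (chromosome 17, 33915899 to 33929292, plus strand) and Erap1 (chromosome 13, 74639568 to 74693201, plus strand) shared 0 windows. Of 19809 genes compared in the same way, 61.8% shared no window, and H2-K1 and H2-D1 stood at percentiles 85.1 and 87.4. Only exact matches in transcripts were looked up, so near matches and copies elsewhere in the genome were not covered. The windows below show a stretch that cannot be told apart between the heavy chains and the first coding bases of each, which match no transcript of another gene.

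H2-K1 and H2-D1 in common (chr17:33999885-33999912, minus strand, and chr17:35263470-35263497, plus strand): ggagttcgtgcgcttcgacagcgacgcg
H2-K1 alone (chr17:34000230-34000257, minus strand): atggtaccgtgcacgctgctcctgctgt
H2-D1 alone (chr17:35263114-35263141, plus strand): atgggggcgatggctccgcgcacgctgc

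**Figure D1:**
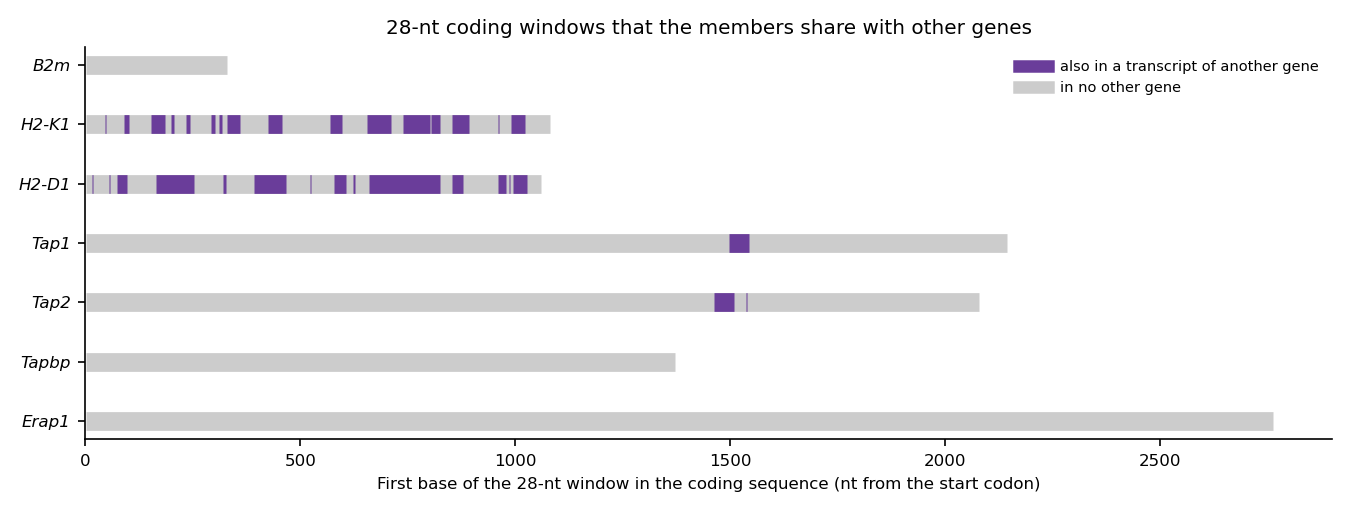
Coding sequence of each member from its start codon (x axis, first base of the 28-nt window in nt), with windows also found in a transcript of another gene in purple and windows found in no other gene in grey. The shared windows are spread along H2-K1 (383 of 1080) and H2-D1 (484 of 1059), while B2m, Tapbp and Erap1 have none.

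With windows of 20 nt the shares of H2-K1 and H2-D1 were 51.5% and 60.5%, and with 31 nt they were 30.9% and 41.0%. Both genes thus kept 422 or more windows of their own at every length, and levels of both can fall short of the gene's own. These windows were read from the reference strain, and the match of the MEFs' own alleles was not tested.

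The promoters of the members, from 250 bases before to 50 bases after the annotated start (RefSeq, GRCm38.p6), were searched on both strands for short motifs known from class I genes. The motifs were chosen after these promoters had been seen, so their presence is a description. H2-K1 and H2-D1 held GGGATTCCC, a form of the NF-κB motif, which 0.414% of 27025 genes with a promoter in the table held. In both it stood just before the interferon-response motif TTTCNNTT, which was found in 4 of the 7 members and in 26.7% of all genes. B2m and Erap1 held its longer form TTTCNNTTT, B2m on the opposite strand, as did 12.1% of all genes. The longer form contains the shorter one, so a match to it counts for both. CCAAT stood in 5 members (41.1% of all genes) and TGACG in 4 (23%). In the stretches below capitals mark the NF-κB and interferon-response motifs.

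H2-K1 (chr17:34000430-34000457, minus strand): GGGATTCCCcatctccacagTTTCACTT
H2-D1 (chr17:35262924-35262951, plus strand): GGGATTCCCcatctcctcagTTTCACTT
B2m (chr2:122147541-122147565, plus strand): agaacatgAAACTGAAAatgggaaa
Erap1 (chr13:74639841-74639865, plus strand): accttcacTTTCACTTTcggtcccg

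The H2-K1 stretch began 124 or 110 bases before its annotated starts and the H2-D1 stretch 170 bases before its start. The B2m stretch began 146 bases before the start, and the Erap1 stretch spanned the start itself.

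Per kb of coding sequence, B2m was by far the most abundant member in WT-shSCR MEFs, with a mean RNA level of 460.6 CPM per kb. Tapbp and H2-K1 followed with 22.4 and 22 CPM per kb, then Tap1 with 6.07, Erap1 with 4.51 and Tap2 with 3.37 CPM per kb. Footprints had B2m first as well, with 752.9 CPM per kb, then Tapbp with 33.8 and H2-K1 with 33 CPM per kb. On this scale the replicates of Tapbp and H2-K1 overlapped in both assays, as did those of Erap1 and Tap1, so these neighbours did not differ beyond their spread. Per 1000 windows that no other gene shares, however, H2-K1 stood above Tapbp without overlap, with means of 34.9 against 22.9 CPM in RNA and 52.5 against 34.5 CPM in footprints, so their order rests on the scale. Among 11432 genes with at least 1 CPM in both assays in WT-shSCR, B2m stood at percentile 91.8 of RNA, H2-K1 at 51.4, Tapbp at 58.7, Tap1 at 34.8, Erap1 at 33.8 and Tap2 at 20.8, on levels not divided by length. In WT-shSCR the 6 members other than H2-D1 had log2 ratios of mean footprint to mean RNA level from 0.27 to 0.71. These were above the median of all genes (-0.05). In single replicates B2m, H2-K1, Tap2 and Tapbp were above that median each time, but Tap1 and Erap1 were not. Tap1 had log2 ratios of -0.36 in replicate 1 and 1.06 in replicate 2, and Erap1 had -0.64 and 0.79. The replicates of Tap1 and Erap1 thus fell on opposite sides of the median.

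H2-D1 was almost unread. Its RNA counts were 3 and 0 in WT-shSCR, 2 and 4 in the libraries labelled WT-shARF and 3 and 0 in the knockout. Its footprint counts were 0 in 5 libraries and 3 in knockout replicate 1. It was left out of every fit, and a count of 0 allows up to 3 reads. H2-D1 had 575 windows of 28 nt of its own against 697 in H2-K1, which drew 12.1 to 24.5 CPM of RNA. H2-L, a heavy chain gene that the files list beside it, was at 0 in all 12 libraries. Reads that fall on more than 1 gene model are counted for neither gene. They made up 0.121% to 0.164% of all footprint alignments and 0.00948% to 0.0162% of all RNA alignments. In footprints these were 8588 to 21012 reads per library, against 94 to 152 reads of H2-K1. Whether reads of H2-D1 are among them was not tested. The level of H2-D1 is therefore uncertain, and no difference between groups could be measured. The other heavy chains were low too: the 20 of 21 listed paralogues that the files hold summed to 6.92 to 14.7 CPM of RNA and 6.28 to 13.5 CPM of footprints per library. H2-Q4, with 5.08 ± 0.62 CPM (SD, n = 2) of footprints in WT-shSCR, and H2-T23, with 3.55 ± 1.29 CPM (SD, n = 2) of RNA, were among the highest of them.

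**Figure D2:**
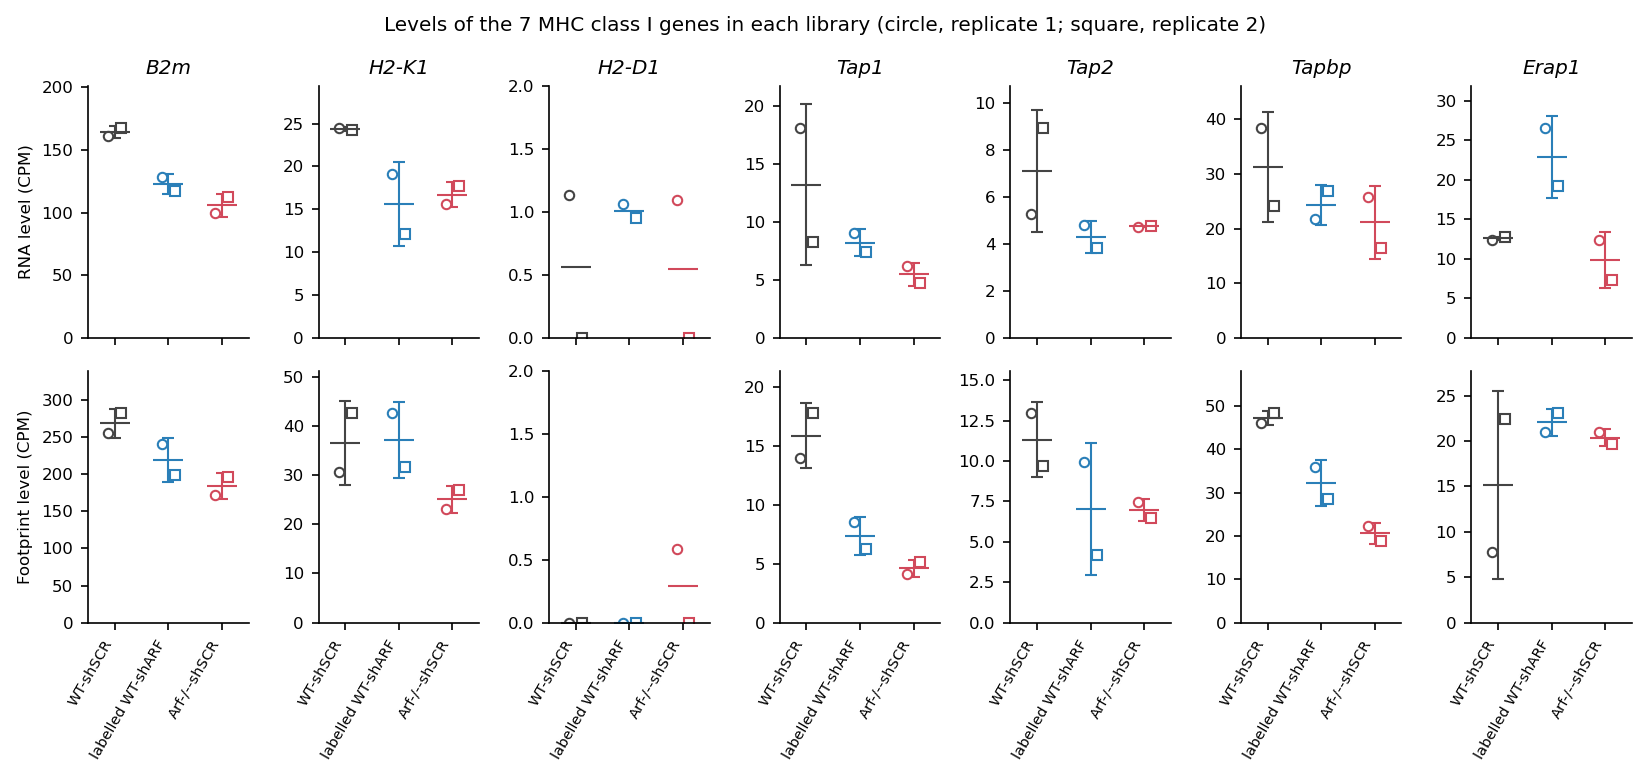
Level in CPM (y axis, from 0) of each member in every library, RNA above and footprints below, by group on the x axis. Circles are replicate 1, squares replicate 2, bars the mean with its SD (n = 2, no SD drawn for H2-D1). The knockout libraries lie below both WT-shSCR libraries for B2m, H2-K1, Tap1 and Tap2 in both assays. For H2-K1 and Tap2 neither difference passed the threshold used below, and the share of all genes so placed was not counted.

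After knockout of Arf, B2m fell in RNA and in footprints, and Tap1 and Tapbp fell in footprints. Genes were tested with edgeR's quasi-likelihood F test, with p-values adjusted by the Benjamini-Hochberg method over all genes tested and a threshold of 0.05. In RNA 1 of 6 tested members was called, B2m, and it was lower, where 7.93% of the 10659 genes tested were called (3.99% lower). In footprints 3 of 6 were called, all lower, where 18.5% of 10737 genes were called (8.95% lower). The median log2 fold change of the 6 members was -0.58 in RNA and -0.66 in footprints, against -0.004 and -0.001 over all genes tested.

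B2m had 161 and 168 CPM of RNA in WT-shSCR and 99.4 and 112 CPM in the knockout. The groups lay well apart, and the mean fell from 164 ± 4.47 to 106 ± 9.24 CPM (SD, n = 2). The log2 fold change was -0.65 (SE 0.17, adjusted p = 0.0215, edgeR). Its footprints were 254.9 and 283 CPM in WT-shSCR and 172 and 196.5 CPM in the knockout, a log2 fold change of -0.58 (SE 0.12, adjusted p = 0.000369, edgeR). The light chain, which every class I molecule needs, was thus lower by a similar factor in both assays (0.644 and 0.686 of the control mean).

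H2-K1 had 24.5 and 24.2 CPM of RNA in WT-shSCR and 15.7 and 17.7 CPM in the knockout. Its footprints were 30.5 and 42.6 CPM against 23.2 and 27 CPM. The knockout libraries were the lower ones in both assays, but neither difference passed the threshold (log2 fold change -0.56, SE 0.32, adjusted p = 0.312 in RNA and -0.57, SE 0.24, adjusted p = 0.0994 in footprints, edgeR). Both estimates lie close to those of B2m with a wider spread, and the interval of the footprint change ran from -1.06 to -0.08 (95%, not adjusted).

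Tap1 showed the largest fitted decline of the members. Its footprints were 14 and 17.8 CPM in WT-shSCR and 4.12 and 5.12 CPM in the knockout, resting on 43 and 46 reads against 21 and 26. The groups did not overlap, and the log2 fold change was -1.81 (SE 0.44, adjusted p = 0.00327, edgeR). In RNA Tap1 had 18.1 and 8.28 CPM in WT-shSCR and 6.19 and 4.76 CPM in the knockout. The control replicates differed more than 2-fold there, and the log2 fold change of -1.31 (SE 0.49) did not pass the threshold (adjusted p = 0.111, edgeR).

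Tap2, whose protein pairs with TAP1, had 5.28 and 8.92 CPM of RNA in WT-shSCR and 4.73 and 4.76 CPM in the knockout. Its footprints were 13.0 and 9.68 CPM against 7.46 and 6.5 CPM. The knockout values were below the control values in both assays, with log2 fold changes of -0.55 (SE 0.58) and -0.74 (SE 0.44) that did not pass the threshold (adjusted p = 0.630 and 0.273, edgeR).

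Tapbp, the bridge between transporter and heavy chain, fell in footprints from 46.1 and 48.4 CPM in WT-shSCR to 22.4 and 18.9 CPM in the knockout. The log2 fold change was -1.23 (SE 0.23, adjusted p = 0.000126, edgeR), which left 0.437 of the control mean. In RNA the groups overlapped, with 38.4 and 24.2 CPM in WT-shSCR and 25.8 and 16.4 CPM in the knockout (log2 fold change -0.60, SE 0.32, adjusted p = 0.281, edgeR).

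Erap1 did not share the direction of the others in footprints. It had 12.4 and 12.7 CPM of RNA in WT-shSCR and 12.4 and 7.35 CPM in the knockout (log2 fold change -0.35, SE 0.42, adjusted p = 0.686, edgeR). Its footprints were 7.79 and 22.5 CPM in WT-shSCR and 21.0 and 19.7 CPM in the knockout, a log2 fold change of 0.42 (SE 0.36, adjusted p = 0.477, edgeR). The WT-shSCR replicates alone spanned almost the whole range of this gene, and leaving out replicate 1 turned the fitted change to -0.17, while leaving out replicate 2 gave 1.36.

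**Figure D3:**
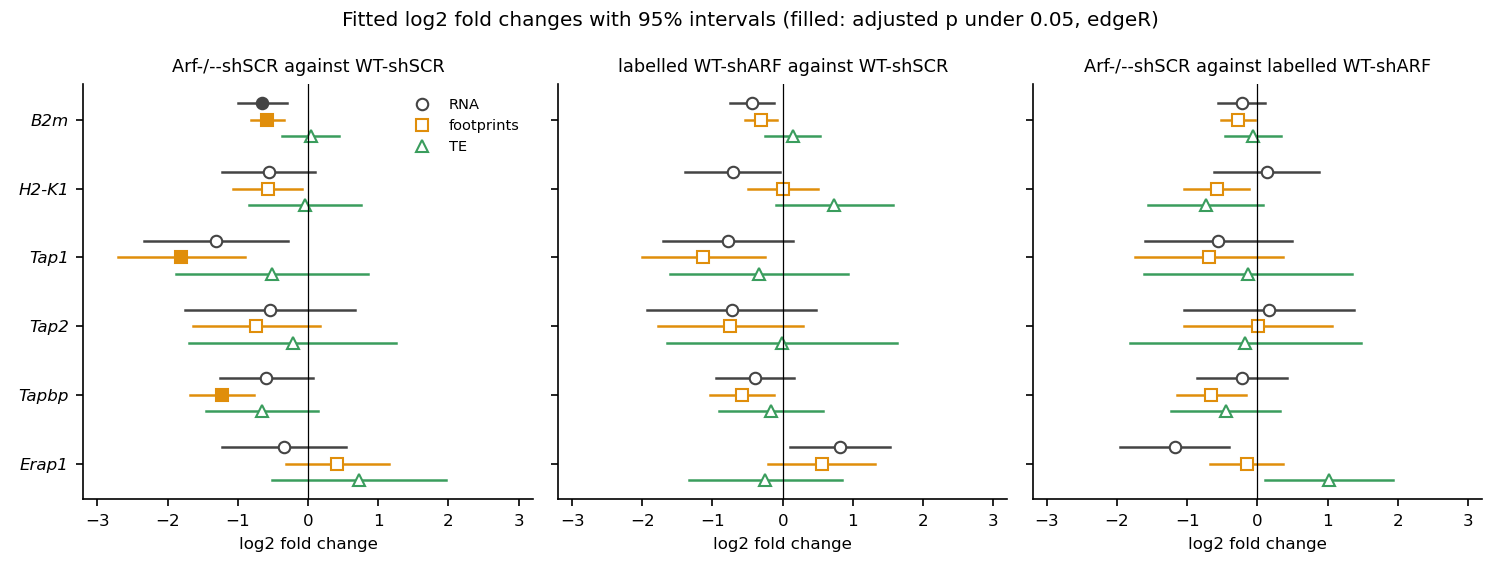
Fitted log2 fold change (x axis) of each member in RNA (circles), footprints (squares) and TE (triangles) with its 95% interval, for the knockout against WT-shSCR, the libraries labelled WT-shARF against WT-shSCR, and the knockout against the libraries labelled WT-shARF. Filled symbols passed an adjusted p of 0.05, and these are B2m in RNA and B2m, Tap1 and Tapbp in footprints, all in the first panel.

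The calls in RNA and footprints differed in how they held. In DESeq2 B2m missed the threshold in RNA (adjusted p = 0.0603), whereas all 3 footprint calls were also made by DESeq2. With either WT-shSCR replicate left out, no gene of the whole table passed in footprints (0 of 11391 tested without replicate 1 and 0 of 11340 without replicate 2), the 3 members included, with log2 fold changes of -0.65 and -0.49 for B2m, -1.97 and -1.62 for Tap1 and -1.26 and -1.18 for Tapbp, in the same order. The B2m call in RNA was lost without WT-shSCR replicate 1 or 2 or without knockout replicate 1, with log2 fold changes of -0.69, -0.61 and -0.56.

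Translation efficiency (TE), the change of footprints relative to the change of RNA, was tested by the assay:condition term of a fit to 8 libraries. After knockout 0 of 6 members were called, with 0 at an unadjusted p under 0.05, where 0.194% of 11314 genes were called by edgeR. DESeq2 gave none of these members an adjusted p-value in TE, so it could not call them. B2m had the narrowest interval, with a log2 fold change of TE of 0.04 (95% interval -0.36 to 0.44, adjusted p = 0.994, edgeR). Tapbp had -0.66 (95% interval -1.46 to 0.14, adjusted p = 0.799, edgeR) and Tap1 had -0.52 (SE 0.66). Erap1 had the highest estimate, 0.73 (SE 0.60), and H2-K1 and Tap2 had -0.04 and -0.22. TE was the least sensitive of the tests. In simulated counts for this comparison, over genes of all levels, 10.0% of those with a log2 change of 1 in TE were called, against 34.5% in RNA and 50.5% in footprints, and 25.9% of the TE calls were false.

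In the libraries labelled WT-shARF no member was called. These comparisons use the same WT-shSCR libraries as those of the knockout, so the resemblance of their values is not independent. RNA had 0 of 6 members called (3 at an unadjusted p under 0.05, 0 by DESeq2), where 7.28% of 10503 genes were called. Footprints had 0 of 6 (3 at an unadjusted p under 0.05, 0 by DESeq2), where 11.1% of 10307 genes were called. TE had 0 of 6 (0 at an unadjusted p under 0.05), where 0.0354% of 11289 genes were called. DESeq2 gave no adjusted p-value to any member in TE, to Tap1, Tap2 and Erap1 in RNA, or to Tap1 and Tap2 in footprints. Its count of 0 in RNA and footprints therefore covers only the remaining members.

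B2m had 128 and 117 CPM of RNA and 241 and 198 CPM of footprints in these libraries, below the WT-shSCR values in both assays. Its log2 fold changes were -0.44 (SE 0.15, adjusted p = 0.0749) in RNA and -0.31 (SE 0.11, adjusted p = 0.0706) in footprints (edgeR). It passed the threshold with the replicate number as a block in both assays (adjusted p = 0.0416 and 0.0253, edgeR), with at least 10 counts required in every library in footprints (adjusted p = 0.0497), and in footprints without WT-shSCR replicate 1 or WT-shARF replicate 1 (log2 fold changes -0.39 and -0.45).

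H2-K1 was the member whose assays parted most here. It had 19.1 and 12.1 CPM of RNA, below WT-shSCR, and 42.6 and 31.6 CPM of footprints, overlapping WT-shSCR. The log2 fold changes were -0.71 (SE 0.33) in RNA, 0.00 (SE 0.24) in footprints and 0.74 (95% interval -0.09 to 1.57, adjusted p = 0.783, edgeR) in TE, none past the threshold.

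Tap1 had 9.02 and 7.37 CPM of RNA and 8.53 and 6.24 CPM of footprints, and Tapbp had 21.8 and 26.9 CPM of RNA and 35.9 and 28.5 CPM of footprints. Both lay between WT-shSCR and the knockout in footprints in every library. Their footprint changes against WT-shSCR were -1.13 (SE 0.43, adjusted p = 0.0881) and -0.58 (SE 0.22, adjusted p = 0.0976, edgeR). Tap2 had 4.78 and 3.8 CPM of RNA and 9.95 and 4.16 CPM of footprints, a spread in footprints wider than the distance of its mean from WT-shSCR.

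Erap1 had its highest RNA level here, 26.5 and 19.3 CPM, above every library of the other groups. The log2 fold change against WT-shSCR was 0.82 (SE 0.35, adjusted p = 0.162, edgeR). Its footprints, 21.0 and 23.1 CPM, overlapped the range of the WT-shSCR replicates (0.56, SE 0.37, adjusted p = 0.403, edgeR). Without WT-shSCR replicate 2 the footprint change was 1.5 and passed (adjusted p = 0.0158), and without replicate 1 it was -0.04.

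Set directly against the libraries labelled WT-shARF, the knockout showed no called difference in any member. In RNA 0 of 6 were called (1 at an unadjusted p under 0.05, 0 by DESeq2), where 2.57% of 10632 genes were called. In footprints 0 of 6 were called (3 at an unadjusted p under 0.05, 0 by DESeq2), where 8.23% of 10941 genes were called. In TE 0 of 6 were called (1 at an unadjusted p under 0.05), where 0.043% of 11632 genes were called. DESeq2 gave an adjusted p-value in TE to B2m alone, which it did not call, and none to Tap1 and Tap2 in RNA. Erap1 had an estimate of -1.18 in RNA (95% interval -1.96 to -0.40, adjusted p = 0.112, edgeR), and Tap1, Tapbp and H2-K1 had -0.69, -0.66 and -0.58 in footprints (adjusted p = 0.486, 0.0996 and 0.126, edgeR). In TE Erap1 had 1.02 (95% interval 0.11 to 1.93, adjusted p = 0.609, edgeR) and H2-K1 had -0.74 (95% interval -1.56 to 0.09, adjusted p = 0.695, edgeR). Erap1 passed in RNA without a filter on low counts and without knockout replicate 1 (log2 fold change -1.61). A difference between knockout and knockdown was thus not established for any member, and the intervals do not show that they acted alike.

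Myeloid markers fell along with these genes. The 18 markers summed to 814 and 792 CPM of RNA in WT-shSCR, 400.3 and 317 CPM under the label WT-shARF and 76.1 and 127 CPM in the knockout. Their footprints summed to 941 and 926, 457 and 371, and 70.8 and 91.0 CPM in the same order. After knockout 15 of 17 tested markers were called lower in RNA and 16 of 17 in footprints, and in the libraries labelled WT-shARF 7 and 10 of 17. None was called higher. Over all genes tested, 7.93% (RNA) and 18.5% (footprints) were called after knockout, and 7.28% and 11.1% under the label WT-shARF. Lyz2, the lysozyme of macrophages and neutrophils, had -3.97 in RNA and -3.86 in footprints after knockout, and Csf1r, the macrophage growth factor receptor, had -3.56 in both (log2 fold changes). The leukocyte marker Ptprc had 18.6 ± 1.18 CPM of footprints in WT-shSCR and 2.55 ± 1.66 CPM in the knockout (SD, n = 2). No myeloid marker of the list was at 0 in any footprint library, and 1 and 2 of them were at 0 in the RNA of the knockout replicates. In the knockout against the libraries labelled WT-shARF, 9 of 14 tested were lower in RNA and 11 of 17 in footprints. The 7 MHC class II genes, in contrast, summed to only 0.394 to 8.67 CPM per library, with 2 to 5 of them at 0. In bulk samples fewer cells of a type and less RNA per cell cannot be told apart, and the part of myeloid cells in the fall of B2m, Tap1 and Tapbp was not tested. B2m, Tap1 and Tapbp footprints were ordered by group as the myeloid sum was, highest in both WT-shSCR libraries and lowest in both knockout libraries. They are the members called lower in footprints after knockout, so the ends of this order largely follow from those calls. The share of all genes with this order was not counted. Footprints of H2-K1, Tap2 and Erap1 did not have this order. In RNA B2m alone of the tested members had it. Of 9 listed markers of epithelial and mesothelial cells, 7 were tested after knockout, and 4 of these were called higher in RNA and 6 in footprints. The epithelial markers Epcam and Cdh1 stayed at or below 1.46 CPM in every WT-shSCR and knockout library. The part of such cells was not tested either.

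**Figure D4:**
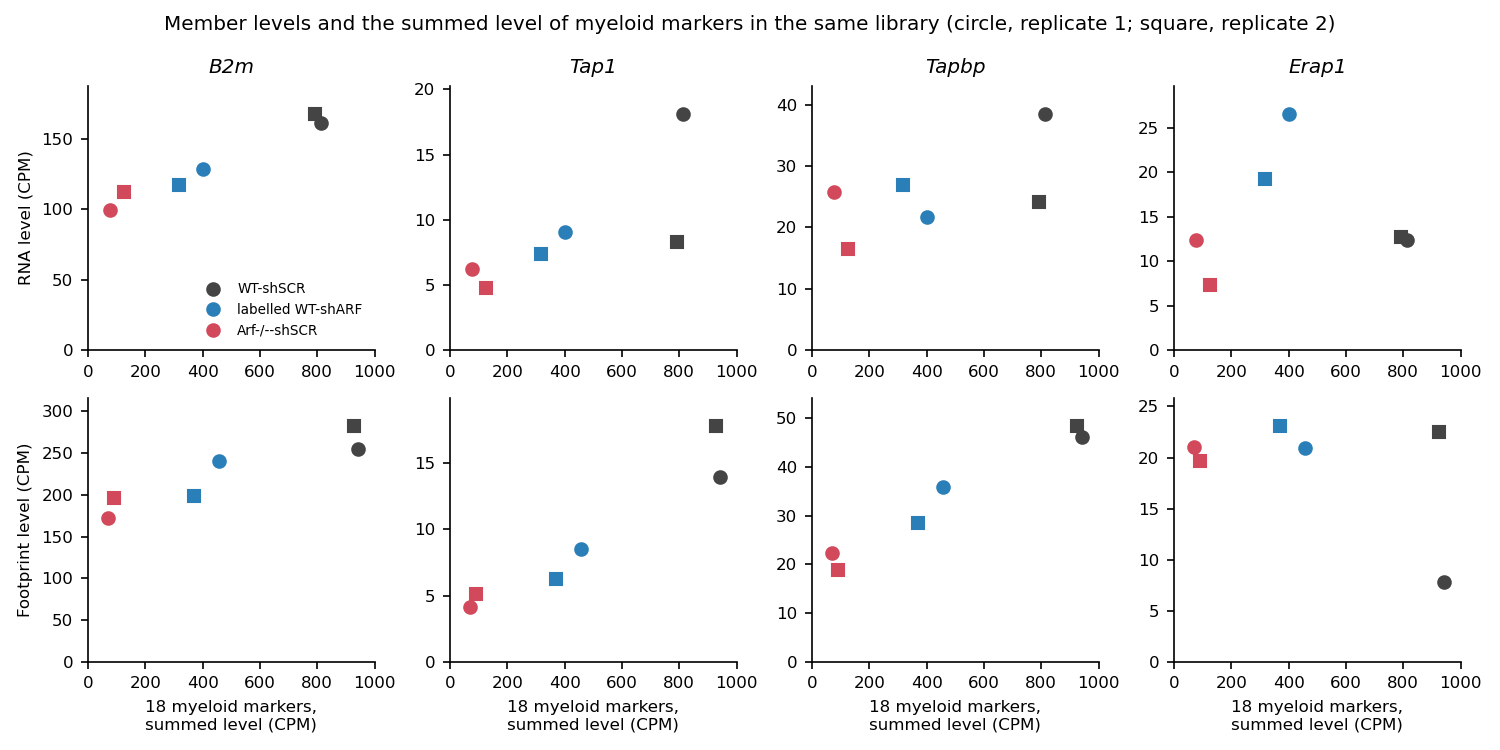
Level in CPM of B2m, Tap1, Tapbp and Erap1 (y axis, RNA above, footprints below) against the summed level of 18 myeloid markers in the same library (x axis, CPM). Colours are groups, circles replicate 1 and squares replicate 2. B2m, Tap1 and Tapbp footprints and the myeloid sum are lowest in the knockout and highest in WT-shSCR, while Erap1 has no such order. In RNA, Tap1 and Tapbp overlap between groups. H2-K1 and Tap2, not drawn, lack this order in both assays, and the share of all genes with it was not counted.

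Across the 12 libraries, with levels centred within each assay, pairs of tested members without Erap1 correlated positively and pairs with Erap1 negatively. Pearson's r on log2(CPM + 1) was 0.91 between Tap1 and Tapbp, 0.84 between B2m and Tap1, 0.81 between B2m and H2-K1 and 0.44 to 0.69 for the other pairs without Erap1. Erap1 had r from -0.45 to -0.04 with the other members. These values describe the same 12 libraries, which share group differences. They carry no p-value and were not set against r of other gene pairs. Of 7486 other genes compared, Fuca1 and Glb1, which encode lysosomal glycosidases, were most like the mean profile of the 6 members (r = 0.97 and 0.95), followed by Hbp1 (0.94), Mmd (0.92) and Bsdc1 (0.92). Fuca1 had 33.1 and 40.7 CPM of footprints in WT-shSCR, 27.7 and 22.9 CPM under the label WT-shARF and 20.8 and 21.1 CPM in the knockout.

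The other genes of the pathway were followed from lists. The immunoproteasome, whose catalytic subunits replace the constitutive ones under interferon to make class I peptides, had 4 of 5 genes tested. After knockout 0 were called in RNA and 2 were called lower in footprints. Of all genes tested, 7.93% were called in RNA and 18.5% in footprints (8.95% lower). Psmb8, whose gene lies beside Tap1 and Tap2, had 6.82 and 7.36 CPM of footprints in WT-shSCR and 0.589 and 1.77 CPM in the knockout, a log2 fold change of -2.59 (SE 0.74, adjusted p = 0.0107, edgeR). Those values rest on 21 and 19 reads against 3 and 9. Psmb10 fell less, from 19.2 and 19.0 CPM of footprints to 7.06 and 11.8 CPM (log2 fold change -1.05, SE 0.37, adjusted p = 0.0422, edgeR). Psmb9 had 0 to 3 reads in each library and was not tested. In the libraries labelled WT-shARF 0 of 4 were called in either assay, where 7.28% (RNA) and 11.1% (footprints) of all genes tested were called.

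The catalytic subunits that the immunoproteasome replaces, Psmb5, Psmb6 and Psmb7, had 0 of 3 called after knockout in either assay. In the libraries labelled WT-shARF Psmb6 fell in RNA and footprints (log2 fold changes -0.47 and -0.43) and Psmb7 fell in RNA (-0.46). Of all genes tested in that comparison, 7.28% were called in RNA and 11.1% in footprints. Of 8 chaperones of the endoplasmic reticulum that fold or load class I, 2 were called in footprints after knockout, both lower. These were Pdia3, the disulfide isomerase bound to tapasin, and Calr, calreticulin, which fell slightly (-0.25, adjusted p = 0.00591, and -0.19, adjusted p = 0.0388, edgeR). In RNA 0 of 7 tested were called. Of all genes tested after knockout, 18.5% were called in footprints (8.95% lower) and 7.93% in RNA. Pdia3 fell in the footprints of the libraries labelled WT-shARF too (-0.19), as did Ganab, a glucosidase that trims glycoproteins (-0.28).

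The lists of this paragraph were not tested as sets, and of all genes tested after knockout 7.93% were called in RNA and 18.5% in footprints. Of 15 regulators of class I transcription, 0 of 14 tested were called in RNA after knockout. In footprints 1 of 15, Nfyc, a subunit of the CCAAT-binding factor, was called, higher by 0.65. Nlrc5, the transactivator of class I genes, had a log2 fold change of -0.48 in RNA (SE 0.64, adjusted p = 0.714, edgeR). Of 7 interferon receptors and kinases, 2 were called in footprints after knockout, Tyk2 and Ifnar2, both lower (-1.20 and -0.68). Ifngr1, the receptor for interferon-γ, fell in both assays of the libraries labelled WT-shARF (-1.04 in RNA and -1.06 in footprints). In that comparison 7.28% (RNA) and 11.1% (footprints) of all genes tested were called. Of 24 interferon-induced genes, 8 were tested after knockout, of which Irgm1 was called lower in RNA (-1.10) and Irgm1 and Ddx58 in footprints (-0.57 and -0.94). Summed over all 24, they had 158 and 148 CPM of RNA in WT-shSCR, 163 and 133 CPM under the label WT-shARF and 110.3 and 96.9 CPM in the knockout. In footprints the sums were 177 and 176, 242 and 211, and 130.1 and 122 CPM. The footprint sums under the label WT-shARF were thus above those of WT-shSCR, while the RNA sums overlapped. These sums were not tested, and no single interferon-induced gene passed the threshold in that footprint comparison. Irgm1 had a log2 fold change of 0.40 there (adjusted p = 0.121, edgeR). Tap1 and Tapbp footprints were below WT-shSCR, also without passing the threshold. The part of interferon in their levels was not tested.

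Between the knockout and the libraries labelled WT-shARF, the class I paralogue H2-T23 was lower in the knockout footprints (log2 fold change -3.18, adjusted p = 0.0346, edgeR) from means of 0.491 and 4.68 CPM, and 56.3% of its windows occur in other genes. In the same comparison the footprints of Uggt1, which senses misfolded glycoproteins in the endoplasmic reticulum, were lower (-0.30, adjusted p = 0.0489, edgeR), as were those of Irgm1 and Ddx58 (-0.97 and -1.18), and those of Ifngr1 and Psmb7 were higher (0.99 and 0.43).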

How the data were processed

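Of 12 libraries from MEFs, 6 held RNA and 6 held ribosome footprints, with 2 replicates of each of 3 groups. The authors clipped adapters, split reads by barcode, took off molecular identifiers with UMI-tools and barcodes with cutadapt, removed rRNA and other noncoding RNA with Bowtie2, aligned with TopHat to mm10 and used HTSeq to count the reads on each coding sequence. Versions were not given in the sources used here, and no removal of duplicates was stated, so PCR copies may be counted as molecules. Their deposited values are these raw read counts, not normalized.

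From these counts edgeR 4.0.16 (R 4.3.3) gave TMM factors, filterByExpr kept genes, and the quasi-likelihood F test gave 2-sided p-values with Benjamini-Hochberg adjustment over all genes tested. RNA and footprints were fitted over the 4 libraries compared and TE over 8. DESeq2 1.42.0 was an alternative. With 2 replicates against 2, an exact permutation test of a single gene cannot go below p = 0.33, so calls rest on the spread edgeR shares between genes. In simulated counts for the knockout comparison, each with 200 changed genes, a log2 change of 0.6 was called for 0% of genes in RNA, 17% in footprints and 0% in TE.

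The other alternatives were a replicate block, RLE factors, a single fit of all groups, a minimum of 10 counts per library, no filter, leaving out each replicate, and a pseudocount of 1 for the ratio of levels in place of 0.5. Window lengths of 20 and 31 nt were added after the data were seen. Equal replicate numbers did not deviate together (r from -0.022 to 0.051 across genes), and no source states that they share a culture.

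The members and lists were chosen with earlier results of these data known. Besides the members, the text names genes of the lists called in a comparison (at most 8 per list), the heavy chain paralogues with the most reads, Cdkn2a, and the 5 genes most like the mean profile of the members. Psmb5, Psmb9, Nlrc5, H2-L, Lyz2, Csf1r and Ptprc were named as examples after their values were seen.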

Additional observations from a re-analysis of the deposited data

How the results depend on the processing

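Over 180 recomputed counts of members called, 166 stayed within 1.5 times the value reported, and of 518 recomputed member values 474 kept their direction and their side of the threshold. The first share says little. Apart from members called lower after knockout in RNA (1) and footprints (3), every reported count was 0. Members without an adjusted p-value from DESeq2 also counted as not called. After knockout, the count of members called lower in RNA (1) was 0 with DESeq2 and 0 to 1 with a replicate left out, and that in footprints (3) was 0 to 3 with a replicate left out. It was 0 only in the fits with a single WT-shSCR library, in which 0 genes of the whole table passed. In the libraries labelled WT-shARF, the count of members called lower (0) was 1 with the replicate block in RNA, 1 with the replicate block and 1 with at least 10 counts in every library in footprints, and 0 to 1 in footprints with a replicate left out, as was the count called higher. Between knockout and WT-shARF libraries, the count lower in RNA (0) was 1 without a filter and 0 to 1 with a replicate left out. The replicate block changed no other call of a member. Equal replicate numbers share only a number, and the block moved the calls of TE over all genes in the libraries labelled WT-shARF from 4 higher and 0 lower to 28 and 7. The cause of these changes was not tested.

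Some estimates changed sign. H2-K1 in TE after knockout (-0.04) was 0.0871 without a filter and 0.0219 with all groups in one fit, and Tap2 in footprints between knockout and WT-shARF libraries (0.01) was -0.0231 with DESeq2. With a replicate left out, the log2 fold changes that turned ran as follows. After knockout, Erap1 footprints ran from -0.17 to 1.36, and TE from -0.20 to 0.23 for H2-K1, -1.33 to 0.0782 for Tap1 and -0.78 to 0.46 for Tap2. In the libraries labelled WT-shARF, Tapbp RNA ran from -0.65 to 0.0087, footprints from -0.23 to 0.26 for H2-K1 and -0.0431 to 1.5 for Erap1, and TE from -1.22 to 0.21 for Tap1, -0.62 to 0.60 for Tap2, -0.60 to 0.14 for Tapbp and -0.80 to 0.63 for Erap1. Between knockout and WT-shARF libraries, RNA ran from -0.22 to 0.47 for H2-K1, -0.0361 to 0.33 for Tap2 and -0.59 to 0.065 for Tapbp, footprints from -0.55 to 0.73 for Tap2, and TE from -0.11 to 0.0187 for B2m, -0.42 to 0.23 for Tap1 and -0.51 to 0.40 for Tap2. A fit with a single library in a group assumes that it varies like the others.

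Over all genes, DESeq2 called 230 higher and 237 lower in RNA after knockout (edgeR 420 and 425), and 62 and 13 in TE (edgeR 10 and 12). In the libraries labelled WT-shARF it called 123 and 195 in RNA (edgeR 327 and 438) and 47 and 3 in TE. Fewer than 50 reads stand behind each library's value of Tap1, which limits its precision.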
